A study of Rattus norvegicus with 12 samples.

Results

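The genes described here are the neurotrophin ligands and receptors of the rat cerebral cortex, chosen by gene symbol from the count matrix of the whole series. Of 17268 genes in the matrix, 7 were taken: the ligands Bdnf, Ntf3 and Gdnf, the tyrosine kinase receptors Ntrk2 and Ntrk3, and the receptors Ngfr and Sort1. No measured value entered this choice. RNA of the cortex of male rats was sequenced in 3 libraries for each of 4 groups. Sham rats underwent the vessel surgery and received no clot. Model rats received a blood clot in the middle cerebral artery and no treatment. rt-PA rats received the same clot and recombinant tissue plasminogen activator, a clot-dissolving protease, at 6 h. rt-PA+Acu rats received the clot, acupuncture at the GV26 and PC6 points at 2 h, and rt-PA at 6 h. The labels name no rat for a library, so the p-values measure the spread between libraries. The time of tissue sampling for sequencing is not given in the sources used here. There was no group with a clot and acupuncture alone, so an effect of acupuncture without rt-PA cannot be told apart from that of the combination.

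Neurotrophins are secreted growth factors that are made as longer precursors and cut to mature proteins. Mature BDNF binds TrkB, the product of Ntrk2, and mature NT-3, the product of Ntf3, binds TrkC, the product of Ntrk3. Both receptors support the survival of neurons and the plasticity of synapses. The uncut precursors bind the p75 receptor, the product of Ngfr, together with sortilin, the product of Sort1, and this pair can trigger the death of neurons. Sortilin also carries newly made BDNF into secretory vesicles. GDNF belongs to another family and signals through a GFRα co-receptor and the kinase RET. In the cortex, Bdnf is made mainly by excitatory neurons and is known for its induction by neuronal activity.

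The libraries held 11678450 to 13616935 counts each, and values are given as CPM, counts divided by the TMM-scaled library size. At this depth 3 counts of a gene stood for 0.208 to 0.262 CPM, counting error only. Markers of cortical neurons, astrocytes and oligodendrocytes were present in every library, and so were markers of striatal neurons, whose summed level reached 186 to 704 CPM in Sham against 65.2 to 209 CPM over the 9 libraries with a clot. Model replicate 3 stood apart in a few genes: Rpl39, a ribosomal protein gene, had 142 counts there, within the Sham range of 105 to 151, while the remaining 8 libraries with a clot had 488 to 990. In 11 genes, none of them a neurotrophin gene, that library lay in the Sham range while the other 8 lay more than 1.5-fold outside it. The same count was 39 in rt-PA+Acu replicate 1, 15 in rt-PA+Acu replicate 2 and 0 in each of the others. In bulk tissue, fewer cells of a type, less RNA per cell and a smaller share of striatum in the sample cannot be told apart.

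Differentially expressed genes (DEGs) were genes whose log2 fold change exceeded 1 in size at an adjusted p below 0.05 in edgeR's quasi-likelihood test, p being adjusted over all genes tested. Below, a gene is said to rise or fall when its adjusted p was under 0.05. Ntf3 was too low to be tested in any comparison, and Gdnf and Ngfr were too low in rt-PA+Acu vs Sham. In the other comparisons with Sham or rt-PA+Acu, Gdnf and Ngfr passed the filter on low counts only through the group where they are high, so counts that include them describe these genes and support nothing further.

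To identify the changes after the clot, Model was compared with Sham, here called the clot comparison. Bdnf, Gdnf and Ngfr rose, while Ntrk2, Ntrk3 and Sort1 fell. All 6 tested genes of the 7 passed the adjusted p, against 54.0% of all genes tested, and 4 were DEGs, against 21.5%. The DEGs were Bdnf, Gdnf and Ngfr upwards and Sort1 downwards, and without Gdnf and Ngfr 2 of 4 were DEGs. In all 6 the libraries of the groups did not overlap, which held for 63.5% of all genes tested.

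Bdnf, the ligand of TrkB, stood at 40.2, 37.8 and 36.7 CPM in the Sham libraries, at 235, 220 and 125 CPM in Model, at 53.4, 56.9 and 69.0 CPM in rt-PA, and at 20.6, 20.4 and 12.4 CPM in rt-PA+Acu. The 4 groups did not overlap, with the order rt-PA+Acu, Sham, rt-PA and Model from low to high. Model replicate 3 was the lowest of its group. The Sham mean was 38.2 ± 1.80 CPM and the Model mean 194 ± 59.7, with 59.8 ± 8.22 after rt-PA and 17.8 ± 4.68 in rt-PA+Acu (SD, n = 3). Bdnf was 5.09-fold higher in Model than in Sham, a log2 fold change of 2.35 with a standard error of 0.22 and an adjusted p of 9.63e-05, and without Model replicate 3 the log2 value was 2.59.

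Gdnf, a survival factor of dopaminergic and motor neurons, had 0, 0 and 1 counts in Sham, 22, 14 and 10 in Model, 19, 12 and 19 in rt-PA, and 0, 2 and 1 in rt-PA+Acu. Both groups with high counts lay apart from both groups with almost none. The Model counts summed to 46 and the Sham counts to 1, a ratio of 45.9 per unit of depth with a 95% interval of 7.84 to 1853 that covers counting error only. The fitted log2 fold change was 5.07 with a standard error of 0.88 and an adjusted p of 0.00174, and its size depends on how the near-absent Sham counts are handled. Without Sham replicate 3, which held the only Sham count, it was 6.96.

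Ntf3, the ligand of TrkC, had 11, 6 and 4 counts in Sham, 18, 8 and 3 in Model, 12, 4 and 7 in rt-PA, and 3, 11 and 6 in rt-PA+Acu. All 4 groups overlapped. The exact two-sided permutation p of CPM lay between 0.7 and 1 over the 5 comparisons, in a design whose smallest p is 0.1. No difference in Ntf3 was detected, and its few counts leave each comparison imprecise. Fitted without the filter on low counts, its log2 fold change in Model against Sham was 0.44 with a standard error of 0.72.

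**Figure D1:**
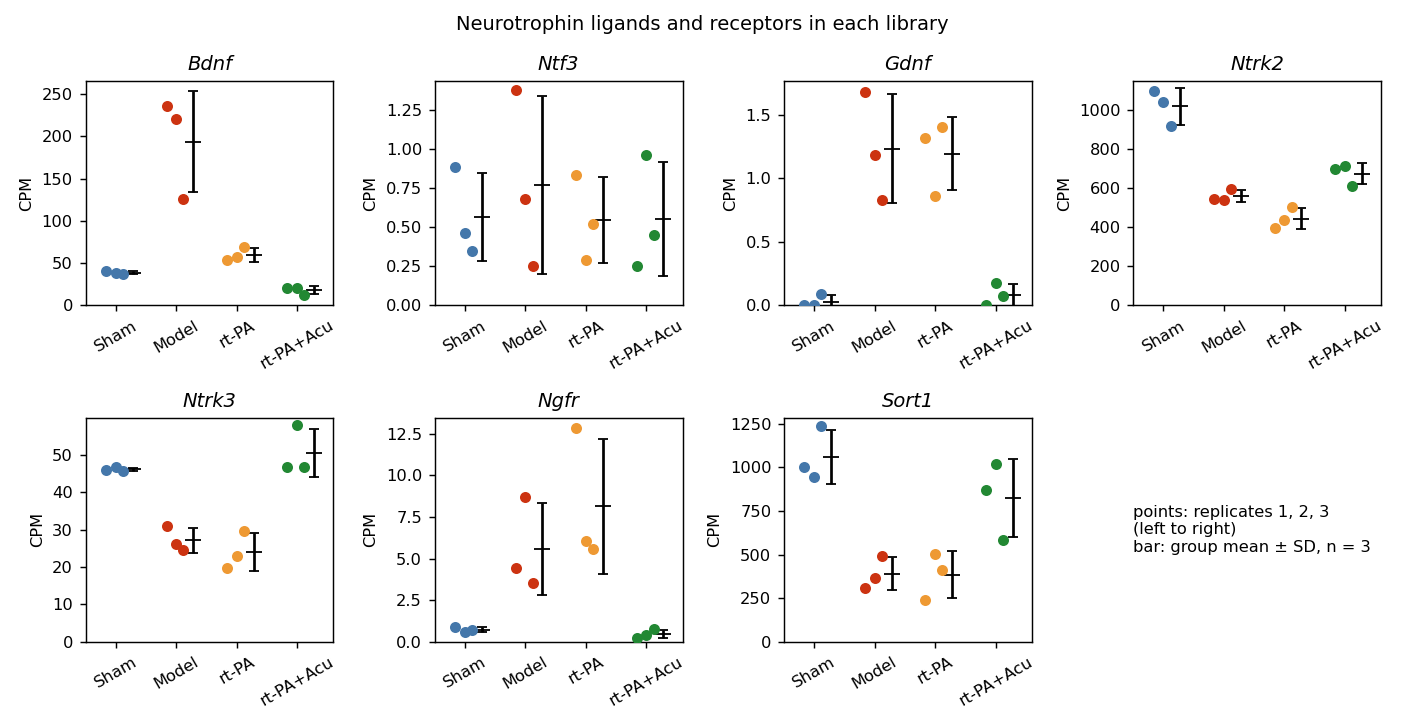
CPM (vertical axes, linear from 0) of the 7 genes in each of the 12 libraries, with the group mean and SD beside the points (n = 3). Bdnf, Gdnf and Ngfr are highest in Model or rt-PA, Ntrk2, Ntrk3 and Sort1 are lowest in Model or rt-PA, and the Ntf3 points of all 4 groups overlap.

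Reference sequence upstream of gene starts was available for 4 of the 7 genes, as 11 windows of RefSeq on build GRCr8: 6 for Bdnf, 3 for Ntf3 and 1 each for Gdnf and Sort1. Some windows of a gene overlap. The 250 bases before each start were searched on both strands for the short CREB site TGACG and the full CREB site TGACGTCA that contains it. A loose AP-1 pattern, TGANTCA with any base as N, and the EGR1 site GCGTGGGCG were searched too. CREB, AP-1 and EGR1 are factors known to act in activity-driven transcription. The windows shown are those of the ligands that held a match, since Bdnf and Gdnf were the ligands that rose in Model. Capitals mark the match, which is a short CREB site in the windows of Gdnf and of Bdnf start 4. In the window of Bdnf start 3 it is TGAATCA, a match to the loose AP-1 pattern with A as N. In this order the windows lie on the plus strand, at chr2:58621077-58621326, chr3:116637608-116637857 and chr3:116621721-116621970, and the match began 49, 35 and 152 bases before the start.
Gdnf: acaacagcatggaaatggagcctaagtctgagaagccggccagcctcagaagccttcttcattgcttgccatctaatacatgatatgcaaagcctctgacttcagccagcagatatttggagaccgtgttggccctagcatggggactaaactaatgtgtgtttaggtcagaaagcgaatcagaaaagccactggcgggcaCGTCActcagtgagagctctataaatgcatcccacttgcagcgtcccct
Bdnf, start 4: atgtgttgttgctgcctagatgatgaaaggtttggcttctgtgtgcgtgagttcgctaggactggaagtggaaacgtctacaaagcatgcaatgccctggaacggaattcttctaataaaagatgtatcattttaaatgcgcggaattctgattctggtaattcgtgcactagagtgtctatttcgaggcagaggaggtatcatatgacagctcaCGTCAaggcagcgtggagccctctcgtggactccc
Bdnf, start 3: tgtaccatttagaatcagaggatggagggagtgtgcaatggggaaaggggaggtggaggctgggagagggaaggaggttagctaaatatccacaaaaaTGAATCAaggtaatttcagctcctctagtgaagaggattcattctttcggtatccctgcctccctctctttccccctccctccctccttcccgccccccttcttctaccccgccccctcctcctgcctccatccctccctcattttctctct

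The short CREB site was found in 2 of the 11 windows and in 18.2% of 33469 windows over all genes. The loose AP-1 pattern was found in 1 of the 11 and in 6.34% of all. The full CREB site, present in 1.59% of all windows, and the EGR1 site, present in 0.478%, were in none of the 11. A match describes these letters only. The counts were summed over each gene, so they do not show which Bdnf start was used.

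Ntrk2, the gene of TrkB, fell in Model. It stood at 1101, 1042 and 917 CPM in Sham, 544, 541 and 594 CPM in Model, 394, 436 and 502 CPM in rt-PA, and 700, 713 and 613 CPM in rt-PA+Acu. None of the groups overlapped, and the order from low to high was rt-PA, Model, rt-PA+Acu and Sham. Against Sham, Model was 1.81-fold lower, a log2 fold change of -0.86 with a standard error of 0.09 and an adjusted p of 0.000185. Ntrk2 encodes a full-length kinase, known from neurons, and a truncated form, known from astrocytes, which counts per gene do not separate. The summed level of 6 astrocyte markers was 3274 to 3947 CPM in Sham and 3988 to 5757 CPM in Model. Of the 6 only Gfap rose, as a DEG, from a mean of 391 to 3342 CPM. The other 5 fell, as Ntrk2 did, 4 of them as DEGs. The part of astrocytes in the Ntrk2 result was not tested.

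Ntrk3, the gene of TrkC, was nearly level among the Sham libraries at 46.0, 46.6 and 45.7 CPM, and lower in Model at 30.9, 26.1 and 24.5 CPM. The rt-PA libraries stood at 19.6, 22.9 and 29.7 CPM and the rt-PA+Acu libraries at 46.6, 57.9 and 46.8 CPM. Model and rt-PA overlapped each other, as did Sham and rt-PA+Acu, and the first pair lay wholly below the second. Ntrk3 fell in Model by 0.76 on the log2 scale, with a standard error of 0.12 and an adjusted p of 0.000911, and did not reach the fold threshold.

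Ngfr, the gene of the p75 receptor, had 11, 8 and 8 counts in Sham, 58, 103 and 43 in Model, 185, 84 and 76 in rt-PA, and 3, 5 and 10 in rt-PA+Acu. Every library of Model and rt-PA lay above every library of Sham and rt-PA+Acu, and within each of these pairs the groups overlapped in CPM. The mean was 0.732 ± 0.140 CPM in Sham and 5.57 ± 2.77 CPM in Model (SD, n = 3). Model was 7.54-fold higher, a log2 fold change of 2.91 with a standard error of 0.44 and an adjusted p of 0.000868.

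Cells other than neurons are known to carry the p75 receptor, among them peripheral glia and cells of the meninges and vessel walls. The summed level of 5 markers of meninges and fibroblasts was 49.1 to 140 CPM in Sham, 28.0 to 71.6 in Model, 74.4 to 257 in rt-PA and 60.0 to 149 in rt-PA+Acu. The sums of Sham and Model overlapped. Within Model and within rt-PA the library with the highest Ngfr was also the one with the highest meninges sum. This did not hold in the other groups. In Sham, replicate 1 had the highest Ngfr and the lowest sum. In rt-PA+Acu, replicate 1 had the lowest Ngfr and the highest sum. The 4 markers of peripheral glia summed to 9.02 to 13.5 CPM in Sham, 11.9 to 15.0 in Model, 12.1 to 27.7 in rt-PA and 7.54 to 15.1 in rt-PA+Acu. Among them Pmp2, a myelin protein gene, was a DEG in the same directions as Ngfr. Its log2 fold change was 3.58 in the clot comparison and -2.45 in the acupuncture comparison. Pmp2 was too low to be tested in rt-PA+Acu vs Sham. The 5 markers of pericytes and smooth muscle summed to 204 to 243 CPM in Sham and 95.0 to 133 in Model. Their sum was 100 to 166 CPM in rt-PA and 105 to 120 in rt-PA+Acu. The part of these cells in the Ngfr result was not tested beyond these sums.

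Sort1, the gene of sortilin, stood at 1000, 943 and 1235 CPM in Sham, 308, 368 and 494 CPM in Model, 240, 501 and 415 CPM in rt-PA, and 871, 1019 and 584 CPM in rt-PA+Acu. Model and rt-PA overlapped, Sham and rt-PA+Acu overlapped, and the first pair lay wholly below the second. The SD was 133 CPM in rt-PA and 221 CPM in rt-PA+Acu (n = 3). Sort1 was lower in Model than in Sham, at a mean of 390 against 1059 CPM, a log2 fold change of -1.44 with a standard error of 0.18 and an adjusted p of 0.000322.

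The 5 oligodendrocyte markers summed to 11522 to 17363 CPM in Sham, 1561 to 8202 in Model, 2575 to 11050 in rt-PA and 3017 to 20389 in rt-PA+Acu. In Model and in rt-PA the libraries had the same order for Sort1 and for this sum, and in Sham and rt-PA+Acu they did not. In rt-PA+Acu, replicate 3 was lowest in both, but replicate 2 had the highest Sort1 and replicate 1 the highest sum. Between Model and Sham 4 of the 5 markers fell as DEGs. Between rt-PA+Acu and rt-PA, where Sort1 rose, none of the 5 passed by edgeR, with adjusted p of 0.248 to 0.758 and log2 fold changes of 0.29 to 1.20. None of the 5 was at 0 in any group, and their part in the Sort1 result was not tested.

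**Figure D2:**
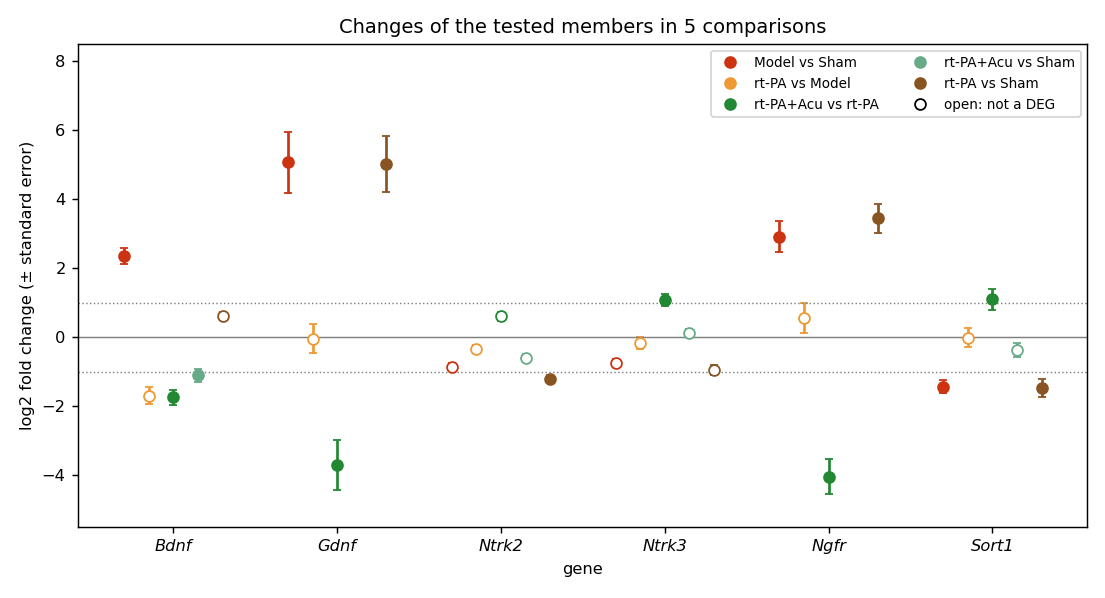
Log2 fold change (vertical axis) with its standard error for the 6 tested genes (horizontal axis) in 5 comparisons of 3 libraries against 3. Filled points are DEGs, open points are not, and dotted lines mark the fold threshold at 1 and -1. Gdnf and Ngfr lie at 2.91 to 5.07 in Model and rt-PA against Sham and at -3.72 and -4.04 for rt-PA+Acu against rt-PA.

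To examine delayed thrombolysis, rt-PA was compared with Model, here called the thrombolysis comparison. None of the 6 tested genes passed in edgeR, and neither did any of the 12941 genes tested, a background of 0%. At an unadjusted p under 0.05 there were 2, Bdnf and Ntrk2, against 9.92% of all genes, and the same 2 had groups that did not overlap, against 15.9%. Bdnf was 3.24-fold lower in rt-PA than in Model, a log2 fold change of -1.69 with a standard error of 0.24 and p of 0.000114 before and 0.114 after adjustment. It ranked 13 by p among all genes. The call depended on the fit. Bdnf was a DEG in DESeq2 with an adjusted p of 4.18e-09, among 73 DEGs, in edgeR fitted over all 12 libraries with 0.0398, and in edgeR without Model replicate 3 with -1.94 and 0.0349. Its adjusted p ranged up to 0.473 over the other settings.

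The other 5 gave small or uncertain differences in the thrombolysis comparison. Ntrk2 differed by -0.33 with a standard error of 0.11 and an adjusted p of 0.405. Ngfr differed by 0.56 with a standard error of 0.44, and by 0.07 without rt-PA replicate 1, which held its highest count. The differences were -0.05 for Gdnf with a standard error of 0.42, -0.17 for Ntrk3 with 0.18, and -0.02 for Sort1 with 0.28. These standard errors leave room for sizeable changes in Gdnf, Ngfr and Sort1 in either direction.

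rt-PA was also set against Sham, whose libraries are the controls of the clot comparison as well. All 6 tested genes passed the adjusted p, against 54.7% of all genes, and 4 were DEGs, against 22.6%. The DEGs were Gdnf and Ngfr upwards and Ntrk2 and Sort1 downwards, and without Gdnf and Ngfr 2 of 4 were DEGs. In all 6 the groups did not overlap, against 64.0% of all genes. Bdnf was 1.54-fold higher in rt-PA than in Sham, with a log2 fold change of 0.62, a standard error of 0.12 and an adjusted p of 0.00274, where the value for Model was 2.35. Ntrk2 differed from Sham by -1.22 in rt-PA and by -0.86 in Model, and Ntrk3 by -0.96 and -0.76. The values of Ngfr, 3.44 with a standard error of 0.43, and Sort1, -1.48 with 0.25, stood beside 2.91 and -1.44 in Model. The Gdnf counts of rt-PA summed to 50, a ratio to Sham of 44.1 with a counting interval of 7.56 to 1777.

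To explore acupuncture before thrombolysis, rt-PA+Acu was compared with rt-PA, here called the acupuncture comparison. Bdnf, Gdnf and Ngfr fell and Ntrk2, Ntrk3 and Sort1 rose, so that all 6 tested genes passed the adjusted p, against 34.8% of all genes. Bdnf, Gdnf, Ngfr, Ntrk3 and Sort1 were DEGs, 5 of the 6 against 15.3% of all genes, and without Gdnf and Ngfr 3 of 4 were DEGs. The groups did not overlap in any of the 6, which held for 51.1% of all genes tested.

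Among the ligands, Bdnf was 3.36-fold lower after acupuncture and rt-PA than after rt-PA, a log2 fold change of -1.75 with a standard error of 0.21 and an adjusted p of 0.00195. Gdnf counts summed to 3 in rt-PA+Acu and to 50 in rt-PA. Per unit of depth the rt-PA sum was 14.6 times that of rt-PA+Acu, with a counting interval of 4.72 to 73.2. The fitted value was -3.72 with an adjusted p of 0.00848, and -4.62 without rt-PA+Acu replicate 2, which held 2 of the 3 counts.

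Among the receptors, Ngfr was 16.5-fold lower in rt-PA+Acu, a log2 fold change of -4.04 with a standard error of 0.52 and an adjusted p of 0.00227. Without rt-PA replicate 1 it was -3.56. Ntrk2 was 1.52-fold higher, at 0.61 with a standard error of 0.13 and an adjusted p of 0.0120. Ntrk3 was 2.10-fold higher, at 1.07 with a standard error of 0.18 and an adjusted p of 0.00527, close to the fold threshold. It fell below that threshold without rt-PA replicate 1 at 0.94, without rt-PA+Acu replicate 2 at 0.96 and with scaling by library size alone at 0.97. Sort1 was 2.14-fold higher, at 1.10 with a standard error of 0.30 and an adjusted p of 0.0260. This call was the least stable of the 5. It was lost without rt-PA replicate 1, rt-PA replicate 3, rt-PA+Acu replicate 1 or rt-PA+Acu replicate 2, with adjusted p of 0.0565, 0.0661, 0.0688 and 0.0875, and with scaling by library size alone, where the value was just under 1.

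The summed markers of monocytes and macrophages were high in the groups where Gdnf and Ngfr were high, whereas the neutrophil sums of Sham and Model overlapped. The 5 markers of monocytes and macrophages summed to 52.0 to 67.1 CPM in Sham, 157 to 228 in Model, 219 to 425 in rt-PA and 26.4 to 41.6 in rt-PA+Acu, and the 5 of neutrophils to 7.26 to 11.8, 4.96 to 16.9, 14.8 to 81.5 and 3.66 to 5.24. In the acupuncture comparison 4 monocyte and macrophage markers and 4 neutrophil markers fell as DEGs. In the clot comparison 2 of 4 tested monocyte and macrophage markers rose as DEGs, Cd14 and Ccr2, and Cd163 did not pass, at 0.80. Of 4 tested neutrophil markers 1 was a DEG there. Ccr2, S100a8, Mmp8 and Cxcr2, counted among these markers, were too low to be tested in rt-PA+Acu vs Sham. The 4 endothelial markers in the matrix summed to 109 to 154 CPM in Sham, 187 to 344 in Model, 231 to 344 in rt-PA and 72.0 to 81.9 in rt-PA+Acu. In the clot comparison only Kdr of these was a DEG, at 2.84. Pecam1 and Cdh5 did not pass there, at 0.65 and 0.62, nor did Tek, at -0.52. In the acupuncture comparison 3 of the 4 fell as DEGs. The part of these cells in the values of Bdnf, Gdnf and Ngfr was not tested. The 6 neuronal markers summed to 4539 to 5306 CPM in Sham and 4498 to 4755 in Model. Their sum was 3592 to 4519 CPM in rt-PA and 4072 to 6034 in rt-PA+Acu. In the clot comparison 3 fell, among them Rbfox3 as a DEG at -1.04 and Slc17a7 at -0.87. Gad1 and Gad2 rose there, at 0.87 and 0.90. In the acupuncture comparison 3 rose, among them Slc17a7 as a DEG at 1.15. Gad1 and Gad2 did not pass there, at -0.29 and -0.41. The part of neurons in the Bdnf result was not tested.

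rt-PA+Acu was finally set against Sham. Of the 4 tested genes 1 was a DEG, Bdnf, against a background of 2.06% of all genes. Bdnf was 2.16-fold lower in rt-PA+Acu than in Sham, a log2 fold change of -1.11 with a standard error of 0.19 and an adjusted p of 0.0194. This call was lost without Sham replicate 1, 2 or 3, with adjusted p of 0.0810, 0.0902 and 0.0633, and without rt-PA+Acu replicate 3, where the value was -0.91 with an adjusted p of 0.00544. Bdnf was lower in all these fits.

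Ntrk2 also stayed below Sham by the adjusted p, so that 2 of 4 passed it against 5.10% of all genes. It was 1.51-fold lower, at -0.60 with a standard error of 0.12 and an adjusted p of 0.0339. That p rose to 0.141, 0.161 and 0.0762 without Sham replicate 1, 2 or 3, to 0.0538 and 0.0635 without rt-PA+Acu replicate 1 or 2, and to 0.0916 with the replicate block. Bdnf and Ntrk2 were the 2 genes whose groups did not overlap, against 30.6% of all genes. Ntrk3 differed by 0.13 with a standard error of 0.11 and Sort1 by -0.37 with 0.21, and neither passed. For Ngfr, rt-PA+Acu had 18 counts in all and Sham 27, and for Gdnf 3 and 1, and their libraries overlapped.

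Ratios of these genes within a library do not depend on the scaling. They are ratios of counts, not per length of transcript, and serve only to compare libraries. Per 1000 Ntrk2 counts there were 0.805, 0.587 and 0.762 Ngfr counts in Sham, 8.14, 16.1 and 5.98 in Model, 32.6, 13.9 and 11.2 in rt-PA, and 0.361, 0.612 and 1.22 in rt-PA+Acu. Model and rt-PA lay apart from Sham and rt-PA+Acu. The log2 ratio differed by 3.70 in the clot comparison and by -4.73 in the acupuncture comparison, with an exact permutation p of 0.1 in each, the smallest that 3 libraries against 3 allow. For rt-PA+Acu vs Sham the difference was -0.14 with an exact permutation p of 0.8.

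Per 1000 Ntrk2 counts, Bdnf counts numbered 36.5, 36.3 and 40.0 in Sham, 433, 407 and 211 in Model, 135, 131 and 138 in rt-PA, and 29.4, 28.6 and 20.2 in rt-PA+Acu. The 4 groups did not overlap, and the rt-PA libraries differed among themselves least on the log2 scale, with an SD of 0.04. The log2 ratio differed by 3.15 in the clot comparison, -1.31 in the thrombolysis comparison and -2.39 in the acupuncture comparison. The ratio of Ngfr to Sort1 counts differed on the log2 scale by 4.29 in the clot comparison and -5.25 in the acupuncture comparison. The exact permutation p was 0.1 in each of these 5 differences.

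**Figure D3:**
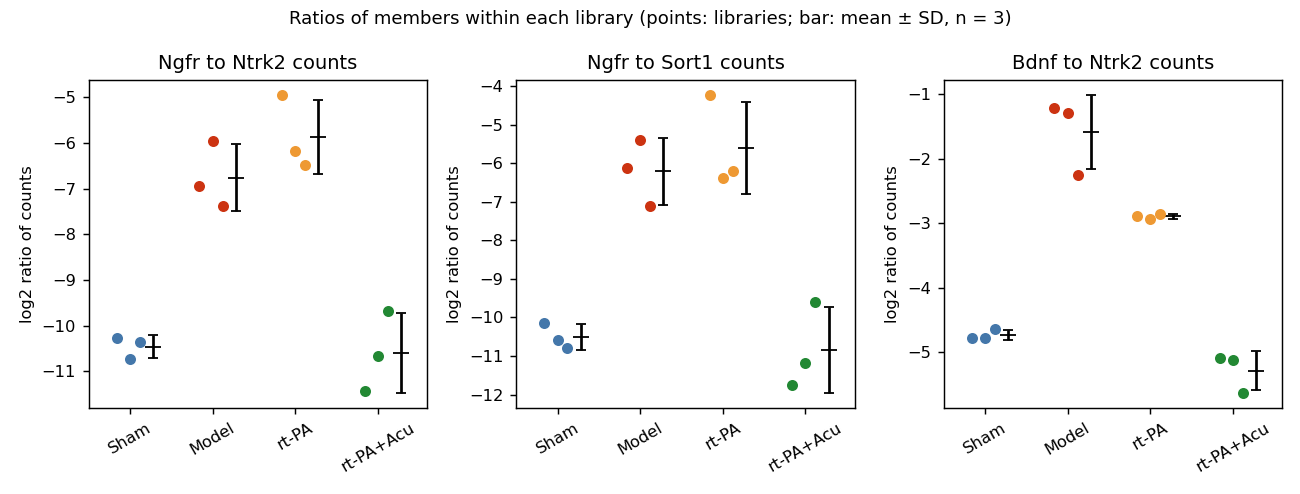
Log2 ratio of counts of Ngfr to Ntrk2, Ngfr to Sort1 and Bdnf to Ntrk2 in each library (vertical axes), by group, with the mean and SD of 3 libraries beside the points. In the first and second panels Model and rt-PA lie above Sham and rt-PA+Acu, and in the third the 4 groups are separate with Model highest.

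The rest of the pathway was followed with 77 other genes in 7 lists, 71 of them in the matrix. In the clot comparison 66 were tested, 13 rose and 7 fell as DEGs, 30.3% of those tested beside 21.5% over all genes. In the acupuncture comparison 65 were tested, 4 rose and 16 fell as DEGs, 30.8% beside 15.3%. There were 0 of 66 in the thrombolysis comparison by edgeR. Of 64 tested between rt-PA+Acu and Sham 1 rose and 3 fell, 6.25% beside 2.06%. Of 65 tested between rt-PA and Sham 14 rose and 11 fell, 38.5% beside 22.6%. These shares were not tested against the background. Artn and Mmp3 were too low to be tested in rt-PA+Acu vs Sham. In the other comparisons with Sham or rt-PA+Acu they passed the filter only through the group where they are high. Pathway counts and shares that include them therefore describe these genes and support nothing further.

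Among the other ligands, Artn, the GDNF-family ligand artemin, rose in Model from 0.393 to 5.35 CPM, a log2 fold change of 3.77 with a standard error of 0.52. Pspn, the ligand persephin, rose from 13.0 to 23.3 CPM, at 0.85 with a standard error of 0.16 and an adjusted p of 0.00285, below the fold threshold. In the acupuncture comparison both fell as DEGs, with log2 fold changes of -2.19 for Artn and -1.27 for Pspn.

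Of 10 tested receptors and co-receptors, 2 rose and 2 fell as DEGs in Model. Ret, the kinase through which GDNF signals, rose by 2.38 with a standard error of 0.24, and Sorcs3, a sortilin relative, by 2.53 with 0.15. Sorcs2, another relative and co-receptor of p75, fell by 1.12, and Rtn4r, the Nogo receptor that pairs with p75, fell by 1.56. In the acupuncture comparison Ret and Sorcs3 fell, at -1.71 and -1.88, and Rtn4r and its partner Lingo1 rose, at 1.59 and 1.19.

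Of the 9 proneurotrophin-processing enzymes, 3 rose and 0 fell as DEGs in Model. Mmp9 and Mmp3, metalloproteinases that can cut proneurotrophins, rose by 4.10 and 4.22 on the log2 scale, with standard errors of 0.19 and 0.90. Mmp3 was almost absent in Sham, at a mean of 0.216 CPM, and in rt-PA+Acu, at 0.131 CPM. In the acupuncture comparison 5 fell and 0 rose as DEGs: Mmp3 at -4.55, Mmp9 at -1.98, Furin at -1.04, Pcsk6 at -1.20 and Plat, the rat's own tissue plasminogen activator gene, at -1.05. Mmp9 was 2.09 above Sham on the log2 scale in rt-PA+Acu, with an adjusted p of 0.00334. Mmp9 is also made by neutrophils and macrophages, whose marker sums are given above.

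Of 6 genes known to be induced by BDNF, 3 rose and 1 fell in Model as DEGs. Nptx2, a synaptic pentraxin, rose from 73.4 to 1285 CPM, at 4.14 with a standard error of 0.14, Vgf, a secreted peptide precursor, rose by 2.80, and Npy, neuropeptide Y, rose from 26.1 to 169 CPM, whereas Arc, a synaptic immediate early gene, fell by 1.12. Nptx2, Vgf and Npy fell in the acupuncture comparison, at -2.75, -3.13 and -2.19. Against Sham, Arc and Egr1, a zinc finger factor, were lower in rt-PA+Acu, at -2.38 and -1.72. Both were DEGs downwards in rt-PA against Sham too, at -2.19 and -1.39. Neither passed in the acupuncture comparison, at -0.21 and -0.35. These genes are also induced by neuronal activity without BDNF.

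The signalling and regulatory lists split in direction. Of 22 Trk adaptors and signalling proteins 2 rose and 2 fell as DEGs in Model, among them the adaptors Sh2b2 and Grb2 at 2.23 and 1.30 and the kinases Mapk3 and Camk4 at -1.33 and -1.04. In the acupuncture comparison Sh2b2 and Shc1 fell, at -1.67 and -1.33. Among 11 regulators of Bdnf transcription 0 rose and 2 fell in Model as DEGs, Mef2c at -1.67 and Crtc1, a CREB coactivator, at -1.35, while Bdnf itself rose. Mef2c rose by 1.77 and Nfatc4 fell by 2.06 in the acupuncture comparison. Of 5 tested adaptors of p75 only Aatf was a DEG in Model, 1.60 upwards, and none was in the acupuncture comparison, where Aatf fell by 0.68.

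The clot comparison and the acupuncture comparison share no library. Of the 6 neurotrophin genes tested in both, 4 were DEGs in both and all 4 moved in opposite directions, Bdnf, Gdnf, Ngfr and Sort1. Of 65 pathway genes 13 were DEGs in both and all 13 were opposite. Over all 12753 genes tested in both, 1449 were DEGs in both and 1447 of them were opposite, and 81.6% of all genes had opposite signs, so the opposite direction was not particular to these genes.

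**Figure D4:**
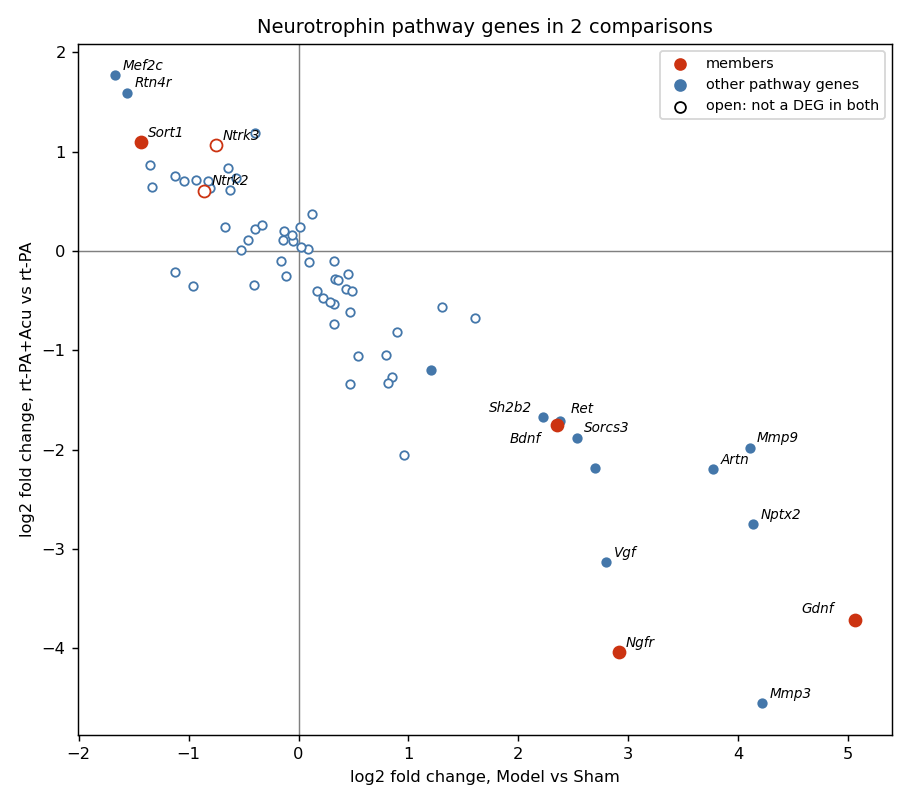
Log2 fold change of Model against Sham (horizontal axis) and of rt-PA+Acu against rt-PA (vertical axis) for the neurotrophin genes (red) and other pathway genes (blue) tested in both. Filled points, DEGs in both comparisons, all lie at the upper left or lower right, with opposite signs on the axes.

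The genes whose log2 CPM followed a neurotrophin gene most closely were listed over all 12 libraries, by Pearson's r among 12743 genes with a mean of at least 1 CPM, as a description. For Bdnf they were Lsm12 at an r of 0.98, Slco3a1 and Polr2c. For Ntrk2 they were Evl, Camk2n1 and Asic2, and for Ntrk3 Dpy19l4, Dpp6 and Nbea. For Ngfr they were Phlda1, Farsa and Pprc1, and for Sort1 Rnf157 at 0.99, Sil1 and Rabac1. The libraries fall into groups, so such an r is set largely by the group means. Gdnf and Ntf3 were too low for this listing.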

How the data were processed

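RNA from the cerebral cortex of male rats was sequenced as 12 poly(A)-selected, strand-marked, paired-end libraries, 3 per group, and libraries were grouped by their labels. The deposited values are raw counts per gene symbol and library. The authors aligned reads to mRatBN7.2 with STAR (2.7.10a in the submitters' processing notes). The study's methods name Salmon 1.9.0 for counting uniquely mapped pairs, the notes also name featureCounts 2.0.1, and which made the table, the annotation release and the use of molecular identifiers are not given in the sources used here. Without such use, reads are not independent molecules. Of 17268 genes 15895 had a count, and 0 libraries were identical.

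The test was edgeR 4.0.16 in R 4.3.3 (TMM factors 0.9476 to 1.077, filterByExpr, quasi-likelihood test, Benjamini-Hochberg over all genes tested) on the 6 libraries of each comparison. Standard errors are the log2 fold change divided by the root of the F statistic. The study's own tool, DESeq2 (1.42.0 here), RLE and library-size scaling, other filters, 1 fit over all libraries, a replicate block and leaving out each library were alternatives. Single values were compared with exact two-sided permutation tests. The fit was tested on simulated counts. Plots used Python 3.11.15 with matplotlib 3.10.9. Replicate numbers did not pair libraries.

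All 7 genes are named, with, in each pathway list, the DEGs of largest change in the clot and acupuncture comparisons. Others of these lists named in the text, such as Npy, Plat, Furin, Pcsk6 and Pspn, and Rpl39 were chosen after their values were seen. The genes and lists were chosen with earlier results of these data known. Promoter sequences are from RefSeq on GRCr8, not the build of the counts. Gfra1, Bex1, Bex3, Ngfrap1, Irak1, Usf1 and Flt1 were not analysed here. Some genes of the pathway lists count in the list totals but are not reported here.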

Additional observations from a re-analysis of the deposited data

How the results depend on the processing

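Over up to 14 alternative settings per result, each neurotrophin gene that was a DEG kept its direction, and Bdnf, Gdnf, Ngfr and Sort1 stayed DEGs in the clot comparison (Model against Sham) in every setting that tested them. With at least 10 counts required in every library, Gdnf and Ngfr were not tested, which left 2 DEGs among the 7 genes in the clot comparison, 3 in the acupuncture comparison (rt-PA+Acu against rt-PA) and 2 between rt-PA and Sham. With no fold threshold, the genes called overall numbered 6951 in the clot comparison, 4522 in the acupuncture comparison, 651 between rt-PA+Acu and Sham, where 2 of the 7 genes were called, and 7127 between rt-PA and Sham, instead of 2765, 1993, 263 and 2940 DEGs. DESeq2 gave 73 DEGs in the thrombolysis comparison (rt-PA against Model), 1 of them Bdnf, and 422 between rt-PA+Acu and Sham. The fit over all 12 libraries gave 2 in the thrombolysis comparison, 1 of them Bdnf. Library size alone moved the median over all genes by up to 0.147 on the log2 scale, between rt-PA and Sham, and left 3 neurotrophin DEGs in the acupuncture comparison.

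Leaving out 1 library at a time gave 2511 to 3133 DEGs in the clot comparison with 4 to 4 neurotrophin genes, 0 to 3 with 0 to 1 in the thrombolysis comparison, 1445 to 2510 with 3 to 5 in the acupuncture comparison, 2708 to 3206 with 4 to 5 between rt-PA and Sham, and 82 to 359 with 0 to 1 between rt-PA+Acu and Sham. The lowest, 82, came without Sham replicate 2, and 146 and 133 came without Sham replicates 1 and 3. In the thrombolysis comparison values near 0 changed sign. Gdnf ranged from -0.27 to 0.25, with 0.14 without rt-PA replicate 2, and was 0.0081 with library size alone. Sort1 ranged from -0.25 to 0.23, with 0.18 without Model replicate 3, and was 0.022 with library size alone. The log2 ratio of Ngfr to Sort1 there ranged from -0.079 to 1.02. Between rt-PA+Acu and Sham the ratio of Ngfr to Ntrk2 ranged from -0.60 to 0.28 and that of Ngfr to Sort1 from -0.96 to 0.11. The values of ratios with a library left out, and the pathway DEGs without Model replicate 3, which were 22 instead of 20 in the clot comparison and 0 in the thrombolysis comparison, were added after seeing the data. The cause of these changes was not tested.

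Same-numbered libraries correlated at -0.144 to 0.163 after removal of the group means, so the numbers do not pair them. With the replicate block, DEGs numbered 2756 in the clot, 0 in the thrombolysis and 1862 in the acupuncture comparison, 2913 between rt-PA and Sham and 194 between rt-PA+Acu and Sham, with 4, 0, 5, 4 and 1 neurotrophin genes among them, and it changed no DEG call among the 7 genes. The adjusted p of Ntrk2 between rt-PA+Acu and Sham rose to 0.0916 in that fit. Depth limits Ntf3, with 3 to 18 counts a library, and Gdnf and Ngfr in Sham and rt-PA+Acu, with at most 11.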
